A study of Mus musculus with 35 samples.

Results

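The proteasome is the barrel-shaped protease that breaks down proteins tagged with ubiquitin. Its core is made of 2 kinds of ring, an outer alpha ring that gates the entrance and an inner beta ring that holds the peptide-cutting sites. A cap on the end of the barrel binds the tagged protein, unfolds it with a ring of ATPases and feeds it into the core. The liver carries a large load of protein turnover, and its cells express nearly all of these subunits at all times. When proteasome activity is blocked, the transcription factor NRF1 (gene Nfe2l1) is known to raise the subunit genes together, and electrophiles that act through NRF2 (gene Nfe2l2) can raise some of them. The solvent vapour styrene, from which polystyrene is made, is turned in the liver into the electrophile styrene oxide.

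The constitutive proteasome genes were taken as the genes whose symbol is Psma, Psmb, Psmc or Psmd followed by a number, without the immunoproteasome subunits Psmb8, Psmb9 and Psmb10 and without Psmb11. They were measured in liver RNA of adult male wild-type C57Bl/6 mice from Taconic. The 7 groups of 5 mice breathed air or styrene at 1, 5, 10, 20, 40 or 120 ppm for 6 hours, once, in cages of their own, and the livers were taken on the following morning. The labels call the mice biological replicates, and each of the 35 mice gave 1 array. Of the 17097 genes that the array annotation names alone on at least 1 probe set, 33 fitted the rule, with 51 probe sets among them. They comprise 8 genes of the alpha ring, 7 of the beta ring, 5 ATPases of the cap, 11 other cap subunits, and Psmd5 and Psmd9, which help to assemble the cap and leave it. The ATPase gene Psmc6 and the assembly factor gene Psmd10 were not analysed here. Where a gene had several probe sets, the one brightest on average over the 35 arrays was used, which applied to 11 of the 33 genes.

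The label of the group was checked against the levels themselves. A level is the deposited log2 value of a probe set, which is comparable between mice for the same gene and not between genes. Over all arrays, 32 of the 33 genes had a mean level between 7.95 (Psmd7) and 10.97 (Psmb4), where the median of a whole array lay between 3.476 and 3.628. The exception was Psma8, an alpha subunit known from the testis, with a mean level of 3.22, so its probe set sat near the bottom of the scale. The constitutive genes also varied little between mice of a group. Their within-group standard deviation (SD) had a median of 0.118 over the 33 genes and ranged from 0.068 (Psmc3 and Psmd8) to 0.244 (Psmd14), against a median of 0.187 over all genes. Hepatocyte markers were strongly present, with a mean level of 12.88 over 7 genes.

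Some measures of whole arrays moved with concentration. The mean array median was 3.503 for the air mice, against 3.572 for 40 ppm and 3.598 for 120 ppm, and the 3' minus 5' difference of actin probe sets was 0.478 in air and between 0.706 and 0.724 in the 3 highest groups. Markers of Kupffer cells, the resident macrophages of the liver, lay between 7.04 and 8.08 in mean level over 10 genes in the air mice and between 6.56 and 7.21 at 120 ppm, and 5 of the 10 were called lower there. Neutrophil, T cell, B cell and bile duct markers had mean levels between 3.35 and 3.77. The part of these measures in the results on the proteasome was not tested. In a piece of tissue, fewer cells of a type and less RNA per cell cannot be told apart. The first 5 ppm mouse and the fifth 20 ppm mouse gave arrays that stood apart from the rest, and the results were repeated without both.

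The promoters of the genes were examined first, because factors with known DNA motifs act on this gene family, and 3 motifs were searched. RefSeq promoters of the GRCm38.p6 assembly, from 250 bases before to 50 bases after the start of the gene, matched 26 of the 33 genes by symbol. The core of the antioxidant response element, TGACNNNGC on either strand, to which NRF1 and NRF2 bind with their small MAF partners, was present in 4 of the 26 promoters, or 15.4%. Over all 32851 promoters of the same length in the table the share was 12.4%. The CCAAT box was present in 10 of 26, or 38.5%, against 41.1% of all genes and 37.4% of all promoters. A heat shock element, GAANNTTC, was present in 1, that of Psmb5, or 3.85%, against 9.04% of all genes and 7.86% of all promoters. The first 2 shares were thus close to those of genes and promoters in general and the last rests on 1 gene. A match of letters is a description, not a binding site. The 4 promoters with the antioxidant response core are those of the catalytic genes Psmb5 and Psmb6, on which the results below turn, and of the cap genes Psmd9 and Psmd12. The first 3 are shown as the 90 bases just before the start and that of Psmd12 as the first 90 bases of its promoter, on the strand of the gene, with the match in capitals. In Psmd12 the match is on the other strand and reads backwards. They lie at chr14:54617996-54618085 (minus strand) for Psmb5, chr11:70525267-70525356 (plus) for Psmb6, chr5:123228100-123228189 (plus) for Psmd9 and chr11:107479278-107479367 (plus) for Psmd12.
Psmb5: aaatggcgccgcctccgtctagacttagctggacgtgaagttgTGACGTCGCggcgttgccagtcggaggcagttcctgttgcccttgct
Psmb6: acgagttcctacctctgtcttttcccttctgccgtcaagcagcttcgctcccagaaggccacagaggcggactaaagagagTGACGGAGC
Psmd9: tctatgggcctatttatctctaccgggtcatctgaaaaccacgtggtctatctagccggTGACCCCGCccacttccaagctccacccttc
Psmd12: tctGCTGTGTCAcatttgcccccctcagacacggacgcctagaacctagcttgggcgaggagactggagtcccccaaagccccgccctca

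The main question of the design is at which concentration liver transcripts departed from air. For the proteasome the answer was a few small falls at 40 and 120 ppm and no call at lower concentrations. At 40 ppm 5 of 33 genes were called lower, namely the beta ring genes Psmb3, Psmb5 and Psmb6, the ATPase Psmc4 and the cap scaffold Psmd2. At 120 ppm 4 were called lower, Psmb2, Psmb5, Psmc4 and Psmd2. In the main fit none of the 33 was called higher at any concentration on the probe set used. Calls on their other probe sets and in other fits are given further on. A call is an adjusted p under 0.05 from limma's moderated test with Benjamini-Hochberg adjustment over all 45037 probe sets, and all comparisons with air share the same 5 air mice. Among these calls the largest was that of Psmc4 at 120 ppm, to 0.808 of the air level.

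The share of proteasome genes called was ordinary in size. The 5 genes at 40 ppm are 15.2% of the 33, and 14.6% of all probe sets tested were called there. The 4 genes at 120 ppm are 12.1%, against 19.4% of all probe sets. The calls among the 33 genes in the main fit all had 1 direction. Over the whole array fewer calls were falls than rises, since 4.89% of all probe sets were called lower at 40 ppm and 6.4% at 120 ppm, whereas every call among the 33 was a fall. With 1 probe set per gene the shares called lower were 6.24% and 7.99%. Direction in the background depended on scaling, and the proteasome calls grew with it. With each array centred on its own median, 7 of the 33 genes were called lower at 40 ppm and 15 at 120 ppm, none higher, while all probe sets split into 6.02% higher and 8.58% lower at 40 ppm and 6.53% and 12.3% at 120 ppm. Whether the direction of the proteasome genes differs from that of other genes was not tested.

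At lower concentrations limma called none of the 33 genes. At an unadjusted p under 0.05 the numbers were 2 at 1 ppm, 4 at 5 ppm, 5 at 10 ppm and 4 at 20 ppm, and 5.63%, 7.08%, 6.37% and 12.2% of all probe sets passed that threshold. After adjustment 0.00444%, 0.153%, 0.0% and 1.03% of all probe sets were called at these concentrations. The median difference from air over the 33 genes was -0.07, -0.05, -0.04 and -0.07 on the log2 scale at 1, 5, 10 and 20 ppm, -0.09 at 40 ppm and -0.12 at 120 ppm. The median over all probe sets was at most 0.015 up to 20 ppm, 0.04 at 40 ppm and 0.058 at 120 ppm. The group mean lay below the air mean for 23, 24, 23 and 21 of the 33 genes at 1, 5, 10 and 20 ppm. At both 40 and 120 ppm it did so for 27. At every concentration most genes thus had a mean below that of the same 5 air mice. The differences ran from -0.29 to 0.27 at 40 ppm and from -0.31 to 0.20 at 120 ppm.

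The differences on the brightest probe sets were small. A 1.5-fold change is 0.585 on the log2 scale, and none of the 33 genes reached it on that probe set in either direction at any concentration, whereas 5.65% of all probe sets did so at 120 ppm. At 20, 40 and 120 ppm the 95% interval of the difference from air lay wholly inside 1.5-fold for all 33 genes on that probe set. Among those intervals the widest bounds were 0.53 for Psmd9 at 20 ppm, 0.55 for Psmd12 at 40 ppm and -0.56 for Psmd13 at 120 ppm. Only the 10 ppm interval of Psmd13, with a lower bound of -0.62, passed the limit among the 6 comparisons with air. In that group 1 mouse stood at 7.39, and the other 4 lay between 8.26 and 8.68. Among the other, dimmer probe sets of the members, that of Psmd7 passed 1.5-fold at 120 ppm, at 0.60 (95% interval 0.39 to 0.80, adjusted p = 0.000144), and that of Psmd9 at 5 ppm, at 0.72 (0.29 to 1.15, adjusted p = 0.205, not called). The standard errors (SE) of the differences were between 0.06 and 0.15.

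**Figure D1:**
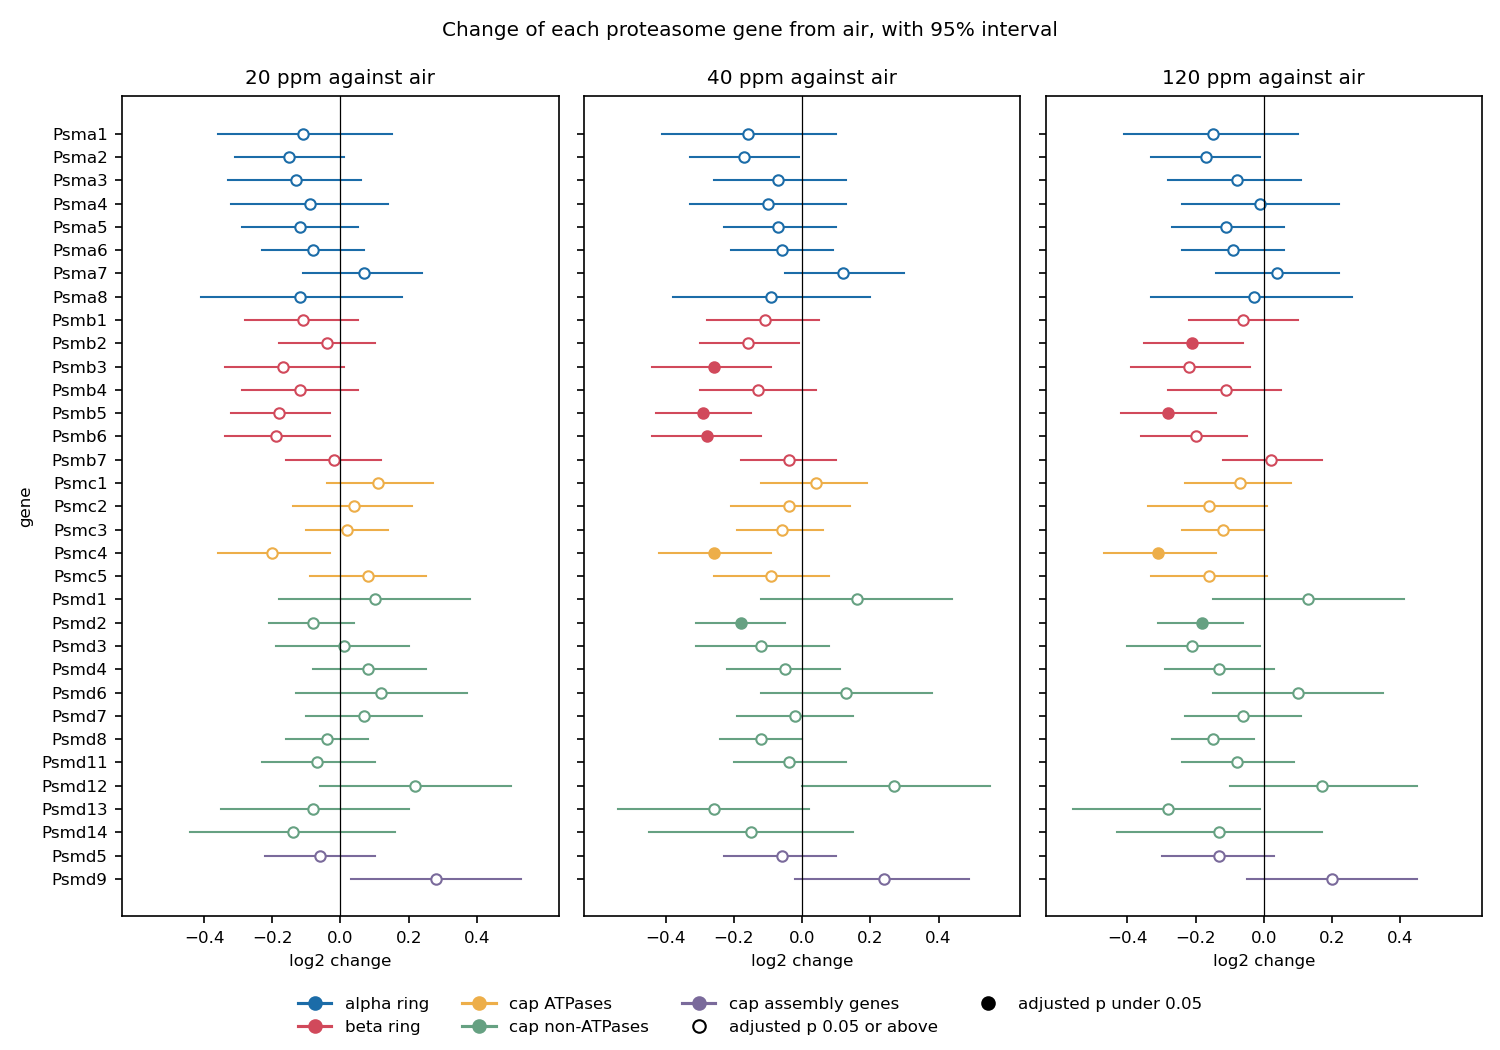
Difference of each of the 33 genes from air (log2, horizontal axis) at 20, 40 and 120 ppm, with 95% intervals, coloured by structural class; filled points have an adjusted p under 0.05. At 20 ppm no point is filled, at 40 ppm the 5 filled points and at 120 ppm the 4 filled points all lie to the left of 0, between -0.31 and -0.18.

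Within the core the calls lay in the beta ring. At 40 ppm 3 of its 7 genes were called lower, with a median difference of -0.16, and at 120 ppm 2 of 7, with a median of -0.20. These are 42.9% and 28.6%, against 4.89% and 6.4% of all probe sets called lower. Of the 8 alpha ring genes none was called at either concentration in the main fit, with a median of -0.08 at both. At an unadjusted p under 0.05 there was 1 alpha ring gene at 40 ppm and 1 at 120 ppm. The difference between the 2 rings was not tested.

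The beta ring has 3 catalytic subunits. Psmb5 carries the chymotrypsin-like site, the main target of proteasome inhibitor drugs. Its level was 10.60, 10.67, 10.76, 10.62 and 10.53 in the air mice and 10.41, 10.44, 10.60, 10.40 and 10.47 at 20 ppm. At 40 ppm the readings were 10.40, 10.29, 10.28, 10.46 and 10.30, and those at 120 ppm were 10.46, 10.40, 10.23, 10.35 and 10.37. Every mouse of 40 and 120 ppm lay below every air mouse, while the 20 ppm mice overlapped air in 1 animal. Psmb5 fell by 0.29 (SE 0.07, adjusted p = 0.00475) at 40 ppm and fell by 0.28 (SE 0.07, adjusted p = 0.00554) at 120 ppm, to 0.817 and 0.826 of the air level. At 20 ppm the difference was -0.18 (SE 0.07, adjusted p = 0.259) and was not called. The calls at 40 and 120 ppm held in 11 of 11 alternative treatments of the data and in 35 of 35 fits that each left out 1 mouse.

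Psmb6 carries the caspase-like site. Its level was 10.53, 10.63, 10.65, 10.59 and 10.52 in air and 10.47, 10.38, 10.61, 10.25 and 10.29 at 20 ppm. Mice given 40 ppm had 10.28, 10.25, 10.27, 10.40 and 10.32, and those given 120 ppm had 10.49, 10.42, 10.27, 10.37 and 10.36. The 40 and 120 ppm mice again lay below all air mice, and at 20 ppm 1 mouse, at 10.61, lay among them. Psmb6 fell by 0.28 (SE 0.08, adjusted p = 0.013) at 40 ppm, a call that held in 11 of 11 alternatives and 35 of 35 fits without 1 mouse. At 120 ppm the difference was -0.20 (SE 0.08, adjusted p = 0.0591) and was not called. It was called with each array centred on its median (-0.30, adjusted p = 0.00874) and with array weights (-0.22, adjusted p = 0.0226).

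Psmb7, the trypsin-like subunit, had the largest p of the beta ring at 120 ppm. Its level was 9.48, 9.47, 9.50, 9.48 and 9.46 in air and 9.56, 9.49, 9.48, 9.45 and 9.31 at 20 ppm. The 40 ppm mice stood at 9.40, 9.38, 9.42, 9.45 and 9.54, and the 120 ppm mice at 9.49, 9.64, 9.34, 9.48 and 9.55. The mice at 20, 40 and 120 ppm lay on both sides of the narrow air range. The difference was -0.04 (SE 0.07, adjusted p = 0.759) at 40 ppm and 0.02 (SE 0.07, adjusted p = 0.855) at 120 ppm, with a 95% interval at 120 ppm from -0.12 to 0.17. That interval does not reach the differences measured for Psmb5 and Psmb6 at that concentration. The differences between these genes were not themselves tested.

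Psmb2, a structural subunit of the beta ring, was called at 120 ppm and not at 40 ppm. It stood at 9.96, 9.99, 9.86, 10.00 and 10.01 in air and 9.85, 9.85, 9.86, 9.90 and 10.16 at 20 ppm. At 40 ppm the readings were 9.85, 9.74, 9.85, 9.84 and 9.76, and those at 120 ppm were 9.67, 9.86, 9.74, 9.80 and 9.72. The mice of 40 and 120 ppm lay below the lowest air mouse, by less than the printed digits for 1 of them at 120 ppm, whereas at 20 ppm the fifth mouse exceeded all air mice. Psmb2 fell by 0.21 (SE 0.07, adjusted p = 0.0365) at 120 ppm. The difference at 40 ppm was -0.16 (SE 0.07, adjusted p = 0.132) and was not called, except with each array centred on its median (-0.23, adjusted p = 0.026). The call at 120 ppm was lost in 7 of the 35 fits that left out 1 mouse, namely air mouse 1, 2, 4 or 5 or 120 ppm mouse 1, 3 or 5, with adjusted p between 0.0549 and 0.0861. It held in 9 of 11 alternative treatments. It was lost after a second quantile normalization (adjusted p = 0.0571) and with only the groups compared (adjusted p = 0.0724).

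Psmb3, another structural subunit, falls outside the naming rule and is given because it was called. Its level was 10.73, 10.86, 10.87, 10.80 and 10.78 in air. With 40 ppm the readings were 10.56, 10.48, 10.52, 10.65 and 10.52, and with 120 ppm 10.67, 10.71, 10.41, 10.60 and 10.58. Both groups lay below all air mice. Psmb3 fell by 0.26 (SE 0.09, adjusted p = 0.0353) at 40 ppm and differed by -0.22 (SE 0.09, adjusted p = 0.074) at 120 ppm, which was not called. The 40 ppm call was lost in 7 of the 35 fits without 1 mouse, namely air mouse 2, 3 or 4 or 40 ppm mouse 1, 2, 3 or 5, with adjusted p between 0.0563 and 0.0813. A second probe set of the gene gave -0.24 (adjusted p = 0.0833) and -0.29 (adjusted p = 0.0278). The 2 probe sets thus pointed the same way at both concentrations, each passing the test at 1 of them.

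**Figure D2:**
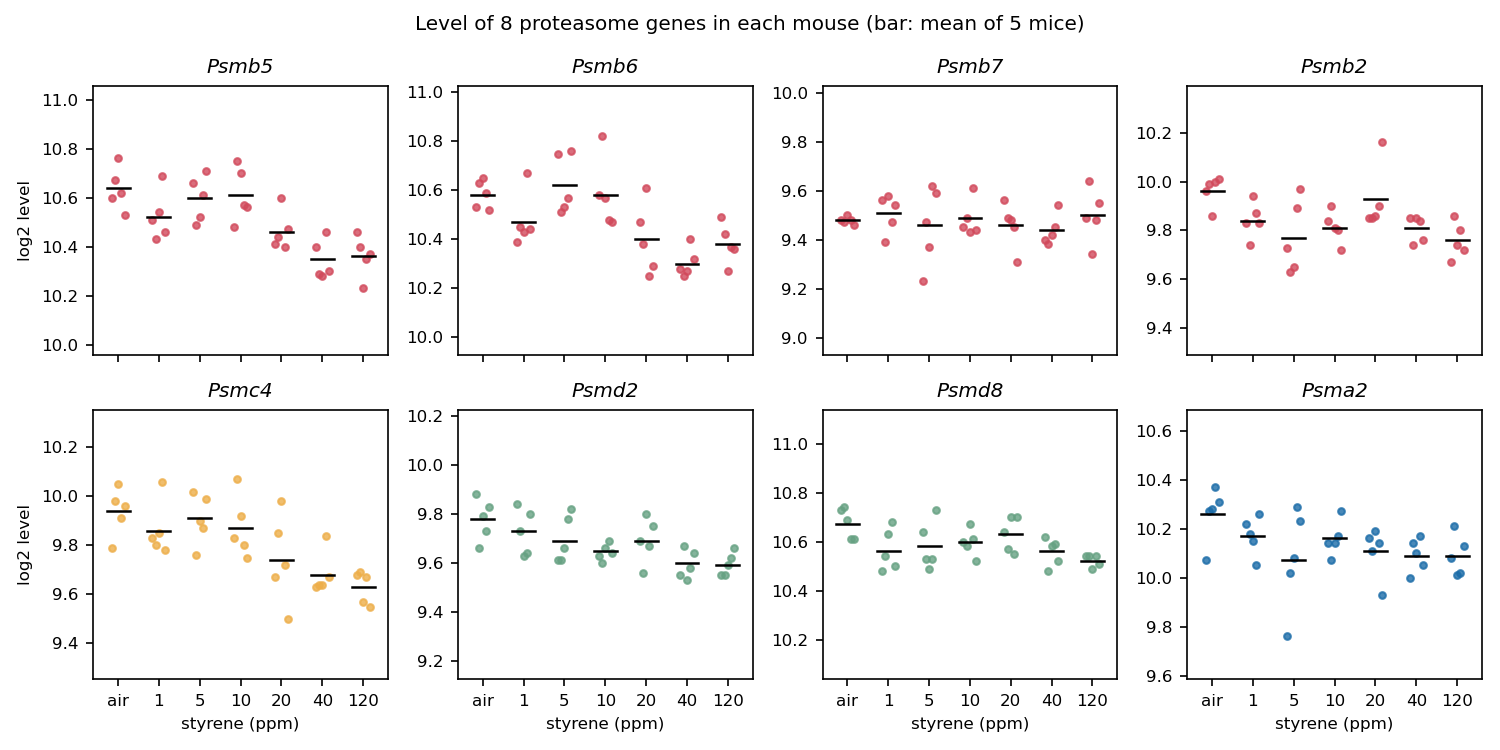
Level (log2, vertical axis, the same span of 1.1 in each panel) of 8 proteasome genes in each of the 35 mice by styrene concentration, with the mean of each group of 5 as a bar. The 40 and 120 ppm mice of Psmb5 and Psmb6 lie below all air mice, while Psmb7 stays around its air mean of 9.48.

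In the alpha ring, Psma2 and Psma5 had the smallest p at 120 ppm and Psma4 the largest. Psma2 stood at 10.07, 10.27, 10.28, 10.37 and 10.31 in air, with 20 ppm mice at 10.16, 10.11, 10.19, 10.14 and 9.93. Mice of 40 ppm read 10.00, 10.14, 10.10, 10.17 and 10.05, those of 120 ppm 10.08, 10.21, 10.01, 10.02 and 10.13. The first air mouse was the lowest of its group and lay within the range of all exposed groups. The differences of Psma2 were -0.17 (SE 0.08, adjusted p = 0.151) at 40 ppm and -0.17 (SE 0.08, adjusted p = 0.125) at 120 ppm, neither called. With array weights both were called lower (adjusted p = 0.0465 and 0.0441). With each array centred on its median that at 120 ppm was (-0.27, adjusted p = 0.0244). Psma4 stood at 10.06, 10.15, 10.12, 10.03 and 10.18 in air, with 20 ppm mice at 10.14, 10.15, 9.88, 10.11 and 9.83. Mice of 40 ppm read 9.94, 10.14, 9.90, 10.04 and 10.04, those of 120 ppm 9.97, 10.11, 10.05, 10.10 and 10.26. These groups overlapped throughout, and its difference was -0.10 (SE 0.11, adjusted p = 0.608) at 40 ppm and -0.01 (SE 0.11, adjusted p = 0.961) at 120 ppm.

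Psma5 had another course over concentration. It stood at 9.29, 9.39, 9.50, 9.39 and 9.44 in air, 9.38, 9.12, 9.13, 8.95 and 9.22 at 1 ppm and 8.81, 9.09, 9.01, 9.27 and 9.19 at 5 ppm. The 20 ppm mice had 9.41, 9.39, 9.19, 9.37 and 9.02, the 40 ppm mice 9.36, 9.38, 9.32, 9.34 and 9.27 and the 120 ppm mice 9.26, 9.27, 9.27, 9.29 and 9.37. The 10 ppm mice had 9.28, 9.26, 9.17, 9.20 and 9.20. All 5 ppm mice and all 10 ppm mice lay below all air mice. The share of all probe sets separated in this way was not counted at these concentrations. Group means came back towards air above 5 ppm. The difference was -0.32 (SE 0.08, adjusted p = 0.112) at 5 ppm and -0.11 (SE 0.08, adjusted p = 0.363) at 120 ppm, neither called against air, but the F test for any difference among the 7 groups was passed (adjusted p = 0.0422).

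The cap ATPases form the ring that unfolds the substrate. Of the 5 measured, 1 was called lower at 40 ppm and at 120 ppm, Psmc4, and the median differences were -0.06 and -0.16. The shares of all probe sets called lower there were 4.89% and 6.4%. Psmc4 stood at 9.79, 9.98, 10.05, 9.91 and 9.96 in air and 9.67, 9.85, 9.98, 9.72 and 9.50 at 20 ppm. Mice given 40 ppm had 9.63, 9.64, 9.64, 9.84 and 9.67, and those given 120 ppm had 9.68, 9.69, 9.57, 9.67 and 9.55. At 120 ppm all mice lay below all air mice, while at 40 ppm the fourth mouse, at 9.84, lay inside the air range. Psmc4 fell by 0.26 (SE 0.08, adjusted p = 0.028) at 40 ppm and by 0.31 (SE 0.08, adjusted p = 0.00749) at 120 ppm. A second probe set gave -0.20 (adjusted p = 0.223) and -0.30 (adjusted p = 0.0508), which passed neither time. The mean of its probe sets gave -0.23 (adjusted p = 0.0797) at 40 ppm, not called. The call at 40 ppm was lost without any 1 of air mice 2 and 3 and 40 ppm mice 1, 2, 3 and 5, with adjusted p between 0.054 and 0.0796, and the call at 120 ppm was kept in 35 of 35 such fits.

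The other ATPases gave no call in the main fit. Psmc3, with the second smallest p of this class at 120 ppm, stood at 9.77, 9.78, 9.80, 9.75 and 9.89 in air and 9.81, 9.76, 9.80, 9.82 and 9.88 at 20 ppm. The 40 ppm mice stood at 9.80, 9.71, 9.72, 9.71 and 9.73, and the 120 ppm mice at 9.66, 9.77, 9.61, 9.70 and 9.67. The 120 ppm group overlapped air in its second mouse, and the difference was -0.12 (SE 0.06, adjusted p = 0.166). With each array centred on its median it was called lower (-0.21, adjusted p = 0.0122). Psmc1, with the largest p, stood at 9.12, 9.18, 9.13, 9.11 and 9.16 in air, with 20 ppm mice at 9.19, 9.37, 9.24, 9.25 and 9.21. Mice of 40 ppm read 9.15, 9.17, 9.17, 9.20 and 9.21, those of 120 ppm 9.04, 9.02, 8.90, 9.19 and 9.20. At 20 ppm its mice all lay above the air mice, the only such gene of the 33 at that concentration (1.19% of all probe sets did so), and the difference of 0.11 (SE 0.08, adjusted p = 0.616) was not called. At 120 ppm it was -0.07 (SE 0.08, adjusted p = 0.536).

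Of all probe sets 4.89% and 6.4% were called lower at 40 and 120 ppm. Among the 11 other cap subunits 1, or 9.09%, was called lower at each of these concentrations. This was Psmd2, the large scaffold at the base of the cap. Psmd2 stood at 9.88, 9.66, 9.79, 9.73 and 9.83 in air and 9.69, 9.56, 9.80, 9.67 and 9.75 at 20 ppm. At 40 ppm the readings were 9.55, 9.67, 9.53, 9.58 and 9.64, and those at 120 ppm were 9.55, 9.55, 9.59, 9.62 and 9.66. The 120 ppm mice lay below the lowest air mouse, the highest of them by less than the printed digits, and at 40 ppm 1 mouse, at 9.67, overlapped air. Psmd2 fell by 0.18 (SE 0.06, adjusted p = 0.0475) at 40 ppm and by 0.18 (SE 0.06, adjusted p = 0.0365) at 120 ppm. The calls were kept at 40 ppm in 16 and at 120 ppm in 28 of the 35 fits that left out 1 mouse, with adjusted p of up to 0.115 and 0.0926, and the lost ones at 120 ppm were those without air mouse 1, 3 or 5 or 120 ppm mouse 1, 2, 3 or 4. Of 11 alternative treatments, 7 kept the call at each concentration. On the same probe set both calls were lost with only the groups compared (adjusted p = 0.112 and 0.107). The 40 ppm call was also lost with the robust prior (0.0536), and that at 120 ppm after a second quantile normalization (0.0531). A second, dim probe set of the gene, with group means between 2.85 and 3.18, differed by 0.32 (adjusted p = 0.0502) and 0.23 (adjusted p = 0.144), in the opposite direction.

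Psmd8, with the second smallest p of this class, stood at 10.73, 10.74, 10.69, 10.61 and 10.61 in air and 10.64, 10.57, 10.70, 10.55 and 10.70 at 20 ppm. Mice given 40 ppm had 10.62, 10.48, 10.58, 10.59 and 10.52, and those given 120 ppm had 10.54, 10.54, 10.49, 10.54 and 10.51. All 120 ppm mice lay below all air mice, in a range of 0.05, and the difference of -0.15 (SE 0.06, adjusted p = 0.0704) was nonetheless not called. It was called with each array centred on its median (-0.25, adjusted p = 0.00452). Psmd7, with the largest p, stood at 7.93, 8.02, 8.0, 7.82 and 7.88 in air, with 20 ppm mice at 8.07, 7.95, 7.87, 7.98 and 8.15. Mice of 40 ppm read 7.95, 8.04, 7.78, 7.88 and 7.90, those of 120 ppm 7.80, 7.67, 7.84, 8.13 and 7.92. Its groups overlapped, with differences of -0.02 (SE 0.08, adjusted p = 0.911) at 40 ppm and -0.06 (SE 0.08, adjusted p = 0.646) at 120 ppm. A second and dimmer probe set of Psmd7, with group means between 4.12 and 4.71, was called higher by 0.46 (adjusted p = 0.00233) and 0.60 (adjusted p = 0.000144).

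Probe sets of the same gene did not always point the same way. Bright second probe sets gave changes in the direction of the main one for Psmb3 and Psmc4. For Psmd4, the ubiquitin receptor of the cap, the second probe set was called lower at 120 ppm at -0.21 (adjusted p = 0.0492), where the main probe set was not called. Dim probe sets went both ways. At 120 ppm the second of Psmc1 (0.21, adjusted p = 0.0192) and the third of Psmd4 (0.26, adjusted p = 0.0423) were called higher, and the third of Psmd11 was called lower (-0.53, adjusted p = 0.0096). Psmd4 and Psmd11 were picked here after their values were seen.

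Separation between mice was counted beside the adjusted p. At 120 ppm all 5 mice lay below all 5 air mice for 8 of the 33 genes: Psmb2, Psmb3, Psmb5, Psmb6, Psmc4, Psmd2, Psmd3 and Psmd8. Of all probe sets 4.73% were separated in that direction. At 40 ppm this held for 4 genes, Psmb2, Psmb3, Psmb5 and Psmb6, against 4.22% of all probe sets. No gene had all exposed mice above all air mice at 40 or 120 ppm, where 8.64% and 8.9% of all probe sets did. These genes are in large part those called above, measured on the same mice.

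Core and cap genes were also averaged in each mouse. The mean level over the 15 core genes was 9.746 ± 0.045 (SD, n = 5) in air, against 9.674 ± 0.037 with 1 ppm, 9.694 ± 0.019 with 10 ppm, 9.642 ± 0.074 with 20 ppm, 9.622 ± 0.025 with 40 ppm and 9.636 ± 0.051 with 120 ppm. The mean over the 18 cap genes was 9.292 ± 0.035 in air, against 9.318 ± 0.042 with 20 ppm, 9.258 ± 0.046 with 40 ppm and 9.205 ± 0.042 with 120 ppm. With 5 ppm the core mean was 9.642, the same as with 20 ppm, over mice from 9.518 to 9.760. It thus lay below air at every concentration, with 12, 13 and 12 of its 15 genes below their air mean at 1, 5 and 10 ppm. At 20 ppm 14 of the 15 core genes lay below their air mean and 7 of the 18 cap genes did. At 120 ppm the counts were 13 of 15 and 14 of 18. The 40 ppm mice lay between 9.586 and 9.648 for the core, all below the lowest air mouse at 9.675, while for the cap the 40 ppm range of 9.202 to 9.317 overlapped the air range of 9.250 to 9.339. The fifth 20 ppm mouse, whose array stood apart, had the lowest core mean of its group (9.519) and the highest cap mean (9.372). The difference between core and cap was not tested.

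**Figure D3:**
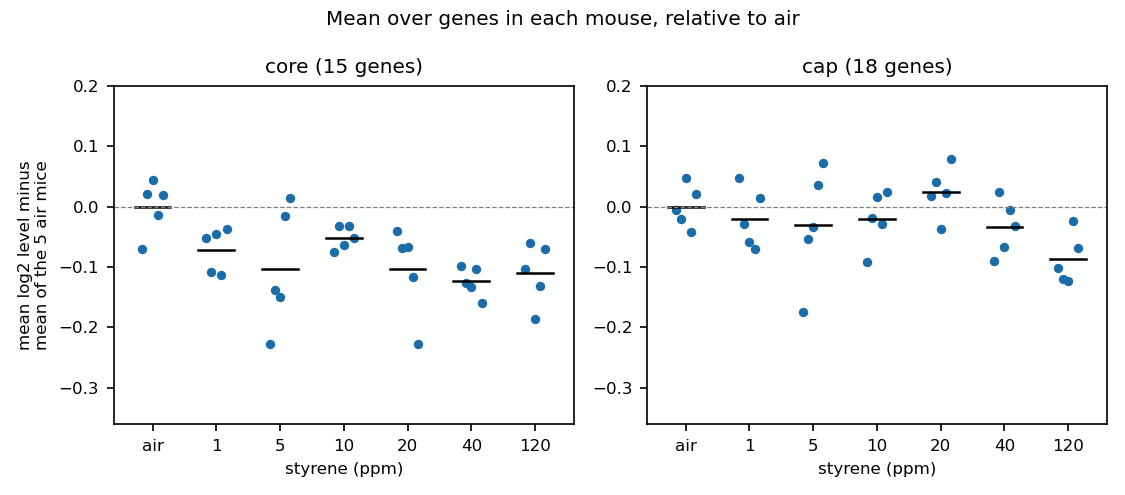
Mean level over the 15 core genes and over the 18 cap genes in each mouse, minus the mean of the 5 air mice (log2, vertical axis), by styrene concentration; bars are means of 5 mice. All 40 ppm mice lie below all air mice for the core, and the cap lies lowest at 120 ppm.

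Over all concentrations the F test was passed by 5 of the 33 genes, or 15.2%, against 20.4% of all probe sets. These were Psma5, Psmb5 (adjusted p = 0.00367), Psmb6 (adjusted p = 0.00866), Psmc4 (adjusted p = 0.0167) and the assembly factor Psmd5 (adjusted p = 0.0281). Psmd5 had its highest group means at 5 ppm (8.31) and 10 ppm (8.33) and its lowest at 120 ppm (8.03), with 8.16 in air. A slope on log2(ppm + 1) passed for 7 genes, or 21.2%, against 32.0% of all probe sets. It pointed down for 6 of them, Psmb3, Psmb5, Psmb6, Psmc4, Psmd2 and Psmd13, and 10.8% of all probe sets passed with a downward slope. The smallest p among the slopes were those of Psmb5 and Psmc4, each at -0.04 per unit (SE 0.01, adjusted p = 0.000865 and 0.00056). The slope pointed up for Psmd12, a lid subunit, at 0.05 (SE 0.02, adjusted p = 0.0299). Group means of Psmd12 were 8.81 in air, against 9.03 with 20 ppm, 9.08 with 40 ppm and 8.98 with 120 ppm. No single concentration was called in the main fit. With only the groups compared, Psmd12 was called higher at 40 ppm (adjusted p = 0.047). Psmd5, Psmd12 and Psmd13 are named because they passed these tests.

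Psmd9, the other assembly factor, lay above air without a call. Its differences were 0.28, 0.24 and 0.20 at 20, 40 and 120 ppm, the largest upward difference of the 33 genes at 20 and 120 ppm, with adjusted p of 0.338, 0.202 and 0.266. It was picked after its values were seen.

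Between neighbouring high concentrations no step was found. limma called none of the 33 genes between 40 and 20 ppm or between 120 and 40 ppm, where 0.373% and 0.0244% of all probe sets were called. At an unadjusted p under 0.05 there was 1 gene in the first comparison and 0 in the second, against 13.7% and 5.58% of all probe sets. The median differences were -0.04 and -0.03.

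The immunoproteasome subunits Psmb8, Psmb9 and Psmb10, which replace Psmb5, Psmb6 and Psmb7 after interferon signals and are rich in immune cells, were read alongside. On main probe sets, Psmb9 had the largest difference of any proteasome gene at 20, 40 and 120 ppm. It stood at 7.49, 8.05, 7.90, 7.82 and 8.07 in air and 7.34, 6.74, 7.63, 7.07 and 6.93 at 20 ppm. The 40 ppm mice stood at 7.51, 7.16, 7.39, 7.08 and 7.47, and the 120 ppm mice at 7.52, 7.36, 7.43, 6.93 and 7.48. The first air mouse, at 7.49, overlapped the exposed groups, and the other 4 lay above all of them. Psmb9 fell by 0.73 (SE 0.16, adjusted p = 0.0187) at 20 ppm, by 0.54 (SE 0.16, adjusted p = 0.0191) at 40 ppm and by 0.52 (SE 0.16, adjusted p = 0.0197) at 120 ppm. A second probe set was called lower as well, at -0.72, -0.48 and -0.59, and the third was not, at -0.13, -0.07 and -0.04.

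Its constitutive counterpart Psmb6 thus had a difference of -0.19 at 20 ppm, where that of Psmb9 was -0.73. For Psmb8, beside Psmb5, the differences were -0.29, -0.25 and -0.32 at 20, 40 and 120 ppm, none called. At 120 ppm Psmb8 lay close to the threshold, and it was called without both arrays that stood apart (adjusted p = 0.0453), with each array centred on its median (-0.42, adjusted p = 0.0166), with array weights (adjusted p = 0.0477) and without air mouse 1 (-0.39, adjusted p = 0.032), among other settings. For Psmb10, beside Psmb7, they were -0.34, -0.20 and -0.03, none called, and 2 of the 20 ppm mice, at 8.27 and 8.31, were the lowest there. Kupffer cell markers had median differences of -0.41, -0.37 and -0.49 at the same concentrations, with 0, 3 and 5 of 10 called lower. Their part in the fall of Psmb9 was not tested. The Psmb9 calls were lost without 120 ppm mouse 4 (adjusted p = 0.0738), without 40 ppm mouse 4 (0.0533) or without 20 ppm mouse 2, 4 or 5 (0.063 to 0.105), each in its own comparison, and without air mouse 2 in all 3 or air mouse 3 at 20 ppm (0.05 to 0.0547). The 20 ppm call was also lost with only the groups compared (-0.73, adjusted p = 0.13).

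**Figure D4:**
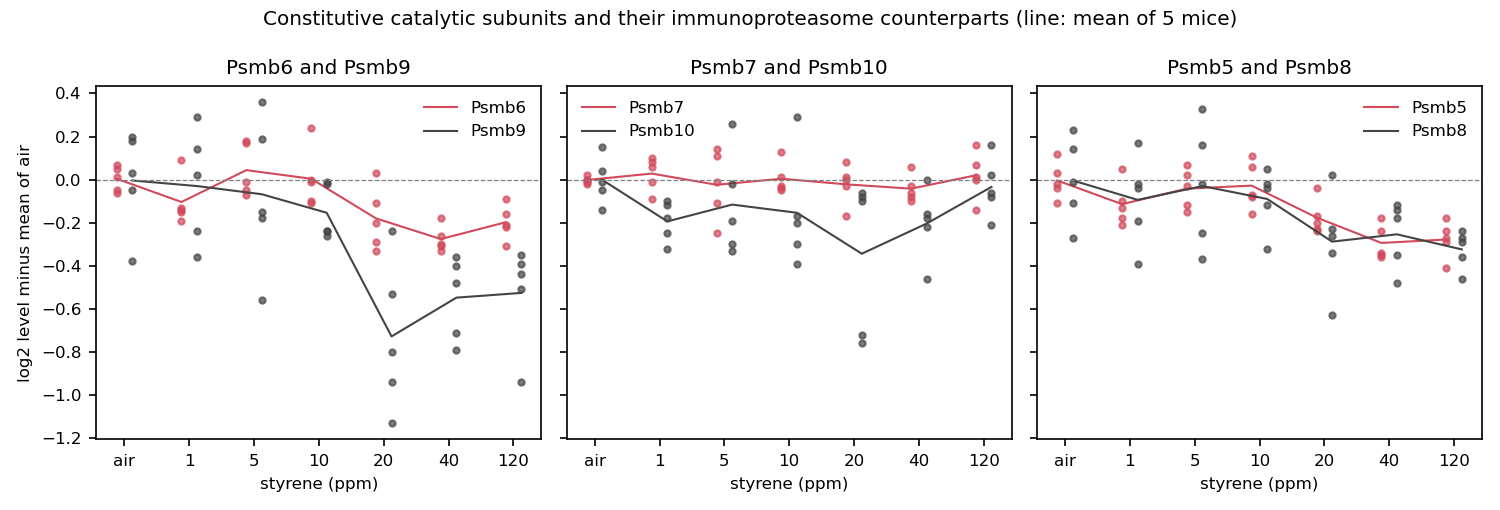
Level of each constitutive catalytic gene and its immunoproteasome counterpart in each mouse, minus the mean of the 5 air mice of the same gene (log2, vertical axis), by styrene concentration; lines join group means. Psmb9 lies lowest at 20 ppm, with a mean of -0.73, where Psmb6 is at -0.19.

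Other genes of the pathway were read from lists chosen by role. The counts in these lists stand against 14.6% of all probe sets called at 40 ppm and 19.4% at 120 ppm. Of the 4 activator and inhibitor genes measured, 1 was called lower at 40 and at 120 ppm. This was Psme2, a subunit of the interferon-inducible proteasome activator, at 9.87, 9.98, 9.92, 9.85 and 9.94 in air. With 40 ppm the readings were 9.66, 9.57, 9.66, 9.59 and 9.60, and with 120 ppm 9.63, 9.71, 9.58, 9.61 and 9.69. No exposed mouse of these groups reached the air range, and Psme2 fell by 0.30 (SE 0.07, adjusted p = 0.00327) and 0.27 (SE 0.07, adjusted p = 0.005). Its partner Psme1 (-0.21, SE 0.08, adjusted p = 0.0683) and the inhibitor Psmf1 (-0.27, SE 0.10, adjusted p = 0.0536) were not called at 120 ppm, though without both arrays that stood apart they were (adjusted p = 0.0385 and 0.0476).

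Of 5 assembly chaperone genes 2 were called lower at 40 ppm and 1 at 120 ppm. Psmg3, which helps to build the alpha ring, stood at 7.51, 7.74, 7.64, 7.60 and 7.49 in air. With 40 ppm the readings were 7.32, 7.28, 7.23, 7.16 and 7.37, and with 120 ppm 7.16, 7.28, 7.30, 7.18 and 7.29. Every mouse of both groups lay below all air mice, and Psmg3 fell by 0.32 (SE 0.10, adjusted p = 0.0321) and by 0.36 (SE 0.10, adjusted p = 0.0156). The 40 ppm call was lost without air mouse 2, 3 or 4 or 40 ppm mouse 2, 3 or 4, with adjusted p between 0.0506 and 0.0839. Pomp, which guides the beta ring, fell by 0.25 (SE 0.07, adjusted p = 0.0124) at 40 ppm and differed by -0.10 (SE 0.07, adjusted p = 0.291) at 120 ppm, which was not called. Psmg2, the third of the rule, differed by -0.09 (SE 0.12, adjusted p = 0.616).

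Of 5 deubiquitinases and cap partners, 1 was called at 120 ppm, the thioredoxin-like cap partner Txnl1, which fell by 0.27 (SE 0.08, adjusted p = 0.0157). The call was lost on its second probe set (-0.17, adjusted p = 0.432) and with the mean of its probe sets (-0.16, adjusted p = 0.0996). The small lid subunit Sem1 (-0.10, SE 0.07, adjusted p = 0.349) and the adaptor Ecpas (0.33, SE 0.24, adjusted p = 0.354) were not called. Uba6, the only ubiquitin-activating gene measured, was dim, with a mean of 3.08 in air, and fell by 0.48 (SE 0.12, adjusted p = 0.00648) at 40 ppm and 0.41 (SE 0.12, adjusted p = 0.0159) at 120 ppm. Without air mouse 1 its 120 ppm value was -0.33 (adjusted p = 0.055). Of 9 genes for ubiquitin shuttles and the segregase limma called none on its main probe set at 40 or 120 ppm, and 1 and 0 had an unadjusted p under 0.05. Those of the rule were Zfand5 (0.22, SE 0.12, adjusted p = 0.187), Ubqln2 (-0.14, SE 0.09, adjusted p = 0.282) and Ubqln1 (-0.11, SE 0.09, adjusted p = 0.425). Other probe sets of this class did give calls. The second of Ubqln1 was called lower at 40 and 120 ppm, at -0.36 (adjusted p = 0.0109) and -0.44 (adjusted p = 0.00158), and the third, a dim one, was called higher, at 0.26 (adjusted p = 0.023) and 0.25 (adjusted p = 0.027). At 40 ppm the second probe sets of Zfand5 (0.32, adjusted p = 0.0239) and Ubqln2 (0.40, adjusted p = 0.0248) were called higher, and the third of Rad23b was at both concentrations (0.43, adjusted p = 0.0175, and 0.49, adjusted p = 0.00634). These were dim as well, with mean levels of 2.68, 2.66 and 3.37, and the main probe set of Zfand5 stood at 2.82.

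Of 5 measured genes that act on proteasome transcription, 1 was called higher at 40 and at 120 ppm and none lower, and the median differences were 0.24 and 0.25. This was Mafg, a small MAF partner of NRF1 and NRF2, at 7.82, 8.23, 8.01, 8.35 and 8.33 in air. With 40 ppm the readings were 8.66, 8.57, 8.67, 8.49 and 8.50, and with 120 ppm 8.52, 8.60, 8.73, 8.71 and 8.70. All mice of both groups lay above all air mice, and Mafg rose by 0.43 (SE 0.13, adjusted p = 0.0207) and 0.51 (SE 0.13, adjusted p = 0.00583). The 40 ppm call was lost without air mouse 1 (0.35, adjusted p = 0.0711) or air mouse 3 (0.40, adjusted p = 0.0578). Nfe2l1 stood at 8.16, 8.20, 8.37, 8.36 and 8.32 in air. With 40 ppm the readings were 8.62, 8.53, 8.49, 8.41 and 8.44, and with 120 ppm 8.45, 8.63, 8.57, 8.50 and 8.42. Its exposed mice also lay above all air mice, yet the differences of 0.22 (SE 0.10, adjusted p = 0.127) and 0.23 (SE 0.10, adjusted p = 0.0862) were not called. With array weights that at 120 ppm was called (0.22, adjusted p = 0.0497). Ngly1, which activates NRF1 protein, differed by 0.39 (SE 0.19, adjusted p = 0.143) at 120 ppm, not called. With array weights it was called higher at 40 and 120 ppm (adjusted p = 0.0274 and 0.0411). It was also called with only the groups compared (adjusted p = 0.0146 and 0.0277) and without 5 ppm mouse 1 (adjusted p = 0.047 and 0.0487). Nfe2l2 differed by 0.08 (SE 0.11, adjusted p = 0.646) and 0.06 (SE 0.11, adjusted p = 0.744), not called. A second and dimmer probe set of Nfe2l2 had a mean level of 4.11, against 8.40 for the main one. It was called higher, at 1.30 (adjusted p = 0.00112) and 0.80 (adjusted p = 0.0278), so the probe sets of this gene disagreed. The slope on log2(ppm + 1) called 3 of the 5 genes higher, or 60.0%. Of all probe sets 32.0% passed with a slope in either direction.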

How the data were processed

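Expression was measured on Affymetrix 3' IVT arrays, whose probe sets are groups of short probes at the 3' end of a transcript. The authors deposited 1 log2 value per probe set and array, and the submitters' processing notes give RMA and Partek as tools without their versions. The base of the logarithm is not given in the sources used here. It was read as 2 from the range of the values, 1.74 to 14.23, and each fold rests on that. Nothing was renormalized, and the share of probe sets above background is unknown, so changes of dim probe sets may be understated and the number of arrays limits the precision.

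The table held 45141 probe sets, of which 104 controls were left out of the tests. A platform annotation, whose symbols can be old, named 1 gene for 28898 probe sets, several for 551 and none for 15588. The 2 probe sets that name Psmd13 together with another gene were left out. In limma 3.58.1 under R 4.3.3 all 35 arrays entered 1 linear model of 7 group means (28 residual and 5.41 prior degrees of freedom). Contrasts set every concentration against air, 40 against 20 ppm and 120 against 40 ppm. An F test covered all groups at once, and a separate model had log2(ppm + 1) as its only term. Benjamini-Hochberg adjustment ran over the 45037 tested probe sets, and 95% intervals are those of the fit. The script was tested on simulated data.

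The members, gene lists and rules were chosen with earlier results of these data known. The rule named, in each structural class, the 2 genes with the smallest p and the gene with the largest p at 120 ppm, the 3 catalytic subunits, and up to 3 genes of each context list. Promoters are RefSeq's (GRCm38.p6). Alternatives were array centring, a second quantile normalization, brighter probe sets only, an intensity-dependent robust prior, array weights and only the groups compared. Others were the replicate number as a block, other probe sets and leaving out each mouse. Another used the rank of the animal number within its group as a covariate. Animal numbers rose with concentration, so that covariate cannot adjust for order between groups. Order and concentration cannot be told apart. The alternative without both arrays that stood apart was chosen after seeing the data.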

Additional observations from a re-analysis of the deposited data

Results flagged for a closer look

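Single mice that lay far from the other 4 of their group were sought among the named genes, over 245 groups of 5, and 21 were found, where chance alone gives about 5% of groups. Among the constitutive subunits, the high ones were Psma5 at 9.37 in 120 ppm mouse 5, Psmb2 at 10.16 in 20 ppm mouse 5, Psmb6 at 10.67 in 1 ppm mouse 4, Psmc4 at 10.06 in 1 ppm mouse 4 and at 9.84 in 40 ppm mouse 4, Psmc3 at 9.80 in 40 ppm mouse 1, and Psmc1 at 9.35 in 1 ppm mouse 5. The low ones were Psma4 at 9.80 in 1 ppm mouse 4 and Psmc1 at 8.81 in 5 ppm mouse 1, whose array stood apart.

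Among the other genes of the pathway, Psmb9 was low at 6.93 in 120 ppm mouse 4, Pomp at 10.06 in 40 ppm mouse 4, Sem1 at 9.56 in 1 ppm mouse 4 and Ubqln1 at 9.91 in 5 ppm mouse 1. The second 10 ppm mouse was high for Psmf1 at 7.97 and low for Psmg2 at 6.92 and Txnl1 at 9.32. Uba6 was high at 3.34 in 1 ppm mouse 4 and Ubqln2 at 9.13 in 1 ppm mouse 1. Ngly1 was low at 6.71 in 5 ppm mouse 1, at 7.69 in 20 ppm mouse 3 and at 7.99 in 40 ppm mouse 1. The fourth 1 ppm mouse accounts for 5 of these values.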

How the results depend on the processing

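At 40 ppm, 5 genes were called, and 3 with the mean of all probe sets of a gene or with the second-highest probe set, both of which use other, often dim, probe sets. With only the groups compared 6 were called there, 1 of them, Psmd12, higher. At 120 ppm, 4 were called, 15 with each array centred on its median, 2 after a second quantile normalization and 8 with array weights. The F test called 5, then 9 with centring, 9 with array weights and 3 with the replicate block. The slope called 7, and 15 with centring. The cause of these shifts was not tested. Without both arrays that stood apart, 5, 4, 6 and 10 genes were called at 40 ppm, at 120 ppm, by the F test and by the slope. Leaving out 1 mouse gave 2 to 5 calls at 40 ppm, 2 to 5 at 120 ppm, 3 to 6 by the F test and 6 to 9 by the slope. At 40 ppm there were 2 calls without air mouse 3 or 40 ppm mouse 1, 3 or 5, and 3 without air mouse 2 or 4 or 40 ppm mouse 2. At 120 ppm there were 2 without air mouse 1 or 5 or 120 ppm mouse 1 or 3. The F test called 3 without mouse 3 of 5 or 10 ppm or mouse 1 or 3 of 120 ppm. Residuals of arrays with the same replicate number correlated at 0.0328 on average, with 31 of 105 pairs over 0.1. Those of arrays with other numbers correlated at -0.00706, with 94 of 420 pairs over 0.1. Whether replicate numbers pair the mice was not tested.

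The 99 results on named genes, each under the alternative settings, gave 4548 pairs of a result and a setting. Of these pairs 4409 stayed on the same side of the threshold, 69 lost the call, 61 gained it and 9 changed direction. These 9 were counted only where the main or the alternative fit gave a call, and all came from the choice of probe set. Changes of sign without a call in either fit were not counted. Psmb7 at 120 ppm, for example, was positive in the main fit and at -0.07 with each array centred on its median. With the second-highest probe set, Psmd7 was at 0.46 and 0.60 at 40 and 120 ppm, Psmd2 at 0.32 and 0.23, Psmc1 at 0.21 at 120 ppm and Ubqln2 at 0.40 at 40 ppm. With the mean of all probe sets, Psmd2 was at 0.07 and 0.02 at 40 and 120 ppm and Psmd7 at 0.24 at 120 ppm. The number of arrays and the unknown background limit what dim probe sets can show.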
